A study of Mus musculus with 6 samples.

Results

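The genes described here are 10 genes of the NF-kB system. They are the 5 Rel family subunits (Nfkb1, Nfkb2, Rela, Relb and Rel) and 5 genes listed as inhibitors of the system (Nfkbia, Nfkbib, Nfkbie, Nfkbid and Tnfaip3). They were chosen by name, and all 10 were present among the 24589 gene symbols of the expression table. The samples were primary wild-type mouse CD8+ T cells in culture that had been activated through CD3 and CD28. One group then received 20 µM trans-vaccenic acid (TVA), which occurs in the milk and meat of ruminants, for 24 h, and the other received DMSO, the solvent, for 24 h. There were 3 bulk RNA-seq libraries per group, and both groups were activated, so no resting cells were compared. The comparison addressed whether TVA shifts the transcript levels of these genes in activated cells. Levels are given as TPM (transcript abundance as a share of all transcripts in a library, which allows for transcript length, so that levels of different genes can be compared).

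NF-kB proteins act as pairs of Rel family subunits, which IkB proteins hold inactive in the cytoplasm. In T cells, the antigen receptor and CD28 signal through adaptor proteins, BCL10 and MALT1 among them, to the IKK complex, which marks IkB proteins for degradation and so frees the subunits to enter the nucleus. A second route, through receptors of the TNF family and the kinase NIK, processes the Nfkb2 product p100 into a partner of RelB. NF-kB also drives several of its own subunits and inhibitors, of which IkBalpha (Nfkbia) and A20 (Tnfaip3) are the best known.

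Because several of these genes are themselves known NF-kB targets, the stretches of their promoters that hold kB-type letters are shown first. The pattern searched was GGGNNNTTC or GGGNNNTCC, on either strand, in the RefSeq promoter windows of build GRCm38.p6 (250 bases before to 50 after each start). Windows were given for 8 of the 10 genes. At least 1 match was found for 7 of these 8 (87.5%, all but Nfkbib), beside 38.14% of the 8469 tested genes with a window. By window, 10 of the 13 windows of these genes held a match (76.92%). This was so for 33.79% of the 10715 windows of tested genes and 28.08% of all 32851 windows. A match is a description of the letters only. Capitals mark the matches, overlapping ones run together, and each stretch is written 5′ to 3′ on the strand of its gene.
Nfkbia, chr12:55492648-55492780, minus strand, directly upstream of the start: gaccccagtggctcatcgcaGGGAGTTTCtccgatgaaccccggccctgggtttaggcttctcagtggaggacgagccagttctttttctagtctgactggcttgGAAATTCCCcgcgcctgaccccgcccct
Rel, chr11:23771000-23771217, minus strand, upstream: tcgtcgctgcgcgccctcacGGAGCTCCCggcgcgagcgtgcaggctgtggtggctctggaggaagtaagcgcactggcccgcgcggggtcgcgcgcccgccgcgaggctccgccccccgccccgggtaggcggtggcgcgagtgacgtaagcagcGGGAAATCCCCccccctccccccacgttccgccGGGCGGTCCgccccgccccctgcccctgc
Nfkbid, chr7:30422160-30422269, plus strand, before its second listed start, within an intron: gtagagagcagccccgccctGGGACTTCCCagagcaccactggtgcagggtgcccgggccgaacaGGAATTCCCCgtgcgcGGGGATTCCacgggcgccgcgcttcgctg
Nfkbie, chr17:45555574-45555623, plus strand, upstream: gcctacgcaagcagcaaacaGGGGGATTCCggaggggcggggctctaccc
Rela, chr19:5637424-5637472, plus strand, upstream: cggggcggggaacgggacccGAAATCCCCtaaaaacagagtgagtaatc

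After merging overlapping matches, the whole windows held 3 separate kB matches for Nfkbia (the third lies just after the start and is not shown), 3 for Rel, 3 for the second window of Nfkbid, 1 for Nfkbie and 1 for Rela. Those of Nfkb2 and Tnfaip3 are not shown. The search was also made for TGACGTCA, the full cAMP response element bound by CREB, because the study also examined CREB. It was found in 1 of the 8 genes, Nfkbid, beside 3.94% of the tested genes with a window. By window this was 1 of 13 (7.69%), beside 1.79% of all windows. The stretch of Nfkbid is shown with the element in capitals.
Nfkbid, chr7:30422335-30422382, plus strand, between the kB matches and the second start: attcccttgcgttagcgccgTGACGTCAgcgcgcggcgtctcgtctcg

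Of the 10 genes, 4 fell with TVA and 0 rose (limma, adjusted p under 0.05 over the 10866 genes tested): Nfkb1, Nfkbia, Nfkbib and Nfkbid. The mean level fell by 14.1% for Nfkb1, the smallest of the 4 falls, and fell by 26.1% for Nfkbib, the largest. All 10 had passed the filter on low values. Across all tested genes 8.51% passed the threshold in either direction and 3.23% passed it as lower. The fitted change was negative for 9 of the 10, all but Rel, with a median log2 change of -0.22, beside 0.04 over all genes tested. For 7 of the 10 each TVA library lay below each DMSO library, a pattern that 11.2% of all tested genes showed. At an unadjusted p under 0.05 there were 7 of the 10, beside 31.8% of all tested genes. Without DMSO replicate 2 the count was 6 of 10, all lower (Relb and Nfkb2 in addition), where 9.21% of all tested genes were called lower. The count was 2 (Nfkbia and Nfkbib) with no variance trend in the fit, 0 when every gene above 0 TPM was tested, 0 without DMSO replicate 3 and 0 without any TVA library. In the last 3 settings the count over all genes also dropped, from 925 to 494, to 285 and to between 95 and 121.

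**Figure D1:**
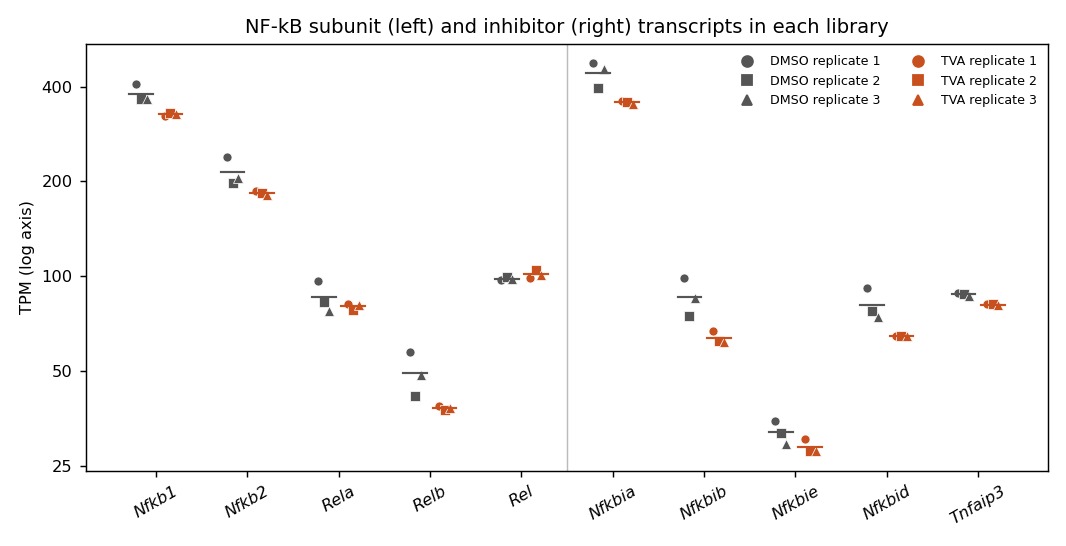
TPM (log axis) of each gene in each of the 6 libraries, subunits to the left and inhibitors to the right of the vertical line, DMSO in grey and TVA in orange, with a bar at each group mean. The TVA points sit below every DMSO point for 7 genes, overlap them for Rela, Rel and Nfkbie, and lie closer together than the DMSO points for every gene but Rel.

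Several features of the libraries bear on these values. Across genes, Pearson correlations of log2(TPM + 1) were 0.997 to 0.999 within the TVA group and 0.993 to 0.996 within the DMSO group. With any TVA library they were 0.996 for DMSO replicate 2, 0.989 to 0.990 for replicate 1 and 0.992 for replicate 3. DMSO replicate 2 was thus closer to each TVA library than to DMSO replicate 1 (0.993) or replicate 3 (0.995). The sources do not say whether the libraries came from separate mice or cultures, so the p-values measure the spread between these libraries, which may be technical. TPM keeps no trace of depth, so the depth is unknown and no counting interval is given. Transcript GC content followed the TVA change over 10588 genes (Spearman correlation -0.401) and also the difference of DMSO replicate 1 from replicate 3 (0.618). The labelled cell type was borne out by summed CD8 T cell markers (Cd3d, Cd3e, Cd3g, Cd8a and Cd8b1) of 1516 to 1638 TPM under DMSO and 1756 to 1787 TPM under TVA, 4 of the 5 higher in every TVA library and Cd3g past the threshold. The 7 myeloid and dendritic markers summed to 35.2 to 37.7 and 47.0 to 49.1 TPM, mostly Lyz2, which passed the threshold as higher. All 4 tested (Lyz2, Csf1r, Itgam and Cd14) were higher in every TVA library, with an unadjusted p under 0.05 by limma. Adgre1, not tested, was also higher in every TVA library, and Itgax and Flt3 overlapped between the groups. Adgre1 and Flt3 were under 1 TPM in every library. The B cell markers summed to 11.3 to 14.9 and 10.65 to 11.02 TPM, mostly Cd79b (Pax5 at most 0.15 TPM). The CD4 T cell markers summed to 4.33 to 5.27 and 4.09 to 4.51 TPM, the NK markers to at most 0.85 TPM and the red cell markers to 7.27 to 24.8 TPM over all libraries. The part of these cells in the results was not tested. In such bulk samples, fewer cells of a type and less RNA per cell cannot be told apart.

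Nfkb1 (chr3:135584655-135691547, minus strand) encodes p105, the precursor of the p50 subunit, and was the most abundant of the subunits. It was measured at 408, 366 and 366 TPM in the DMSO libraries (replicates 1, 2 and 3) and at 322, 330.4 and 327 TPM in the TVA libraries. The groups did not overlap, and the gap between the lowest DMSO and the highest TVA library was wider than the whole range of the TVA group. The mean fell by 14.1%, from 379.9 ± 24.0 to 326 ± 4.27 TPM (SD, n = 3), a log2 change of -0.22 (SE 0.049, adjusted p = 0.041 by limma). Omitting DMSO replicate 3 gave an adjusted p of 0.063, and omitting a TVA library gave 0.126 to 0.155.

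Rela, Relb and Rel encode the subunits that carry a transactivation domain, and none of the 3 passed the threshold. Rel (chr11:23736847-23770970, minus strand) encodes c-Rel, the subunit best known for lymphocyte activation and for Il2. It had 97.2, 99.3 and 98.2 TPM under DMSO and 98.4, 104 and 101 TPM under TVA. The groups overlapped, and Rel was the only one of the 10 genes with a positive change, a log2 change of 0.04 (SE 0.037, 95% interval -0.04 to 0.13, adjusted p = 0.44 by limma), which turned to -0.04 after a correction for GC content. Rela (chr19:5637483-5648130, plus strand) encodes p65, the main partner of p50. It had 96.6, 82.7 and 77.6 TPM under DMSO and 81.4, 77.9 and 81.2 TPM under TVA. DMSO replicates 1 and 2 stood above all the TVA values, DMSO replicate 3 lay below all of them, and the log2 change was -0.09 (SE 0.076, 95% interval -0.26 to 0.09, adjusted p = 0.44 by limma). Without DMSO replicate 1 it was 3.3e-05.

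Relb (chr7:19606217-19629438, minus strand) encodes the subunit of the second, NIK-dependent route. It had 57.5, 41.8 and 48.5 TPM under DMSO and 38.8, 37.6 and 38.3 TPM under TVA. The groups did not overlap, but the DMSO libraries were spread over a wide range and the log2 change of -0.35 (SE 0.10) did not pass the threshold (adjusted p = 0.068 by limma). Without DMSO replicate 2, the lowest of its group, the log2 change was -0.46 and passed (adjusted p = 0.0058 by limma). Nfkb2 (chr19:46304320-46312385, plus strand), the gene of p100, which is both an inhibitor and the precursor of RelB's partner p52, had 239, 198 and 205 TPM under DMSO and 187, 184 and 181 TPM under TVA. The groups did not overlap, DMSO replicate 1 lay well above the others, and the log2 change of -0.22 (SE 0.069) did not pass the threshold (adjusted p = 0.085 by limma, and 0.025 without DMSO replicate 2). It was -0.13 without DMSO replicate 1 (adjusted p = 0.053 by limma) and -0.10 once corrected for GC content (0.055). Nfkb2 shares 531 exonic bases with a lncRNA and 299 with Psd on the opposite strand. The use of strand is not stated, so its value is uncertain.

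Nfkbia (chr12:55489410-55492647, minus strand) encodes IkBalpha, which is resynthesised after each wave of NF-kB activity and returns the subunits to the cytoplasm. It was the most abundant of the 10 genes in both groups and is the gene whose upstream stretch with a pair of kB matches is shown above. It had 474, 395 and 454 TPM under DMSO and 361, 359 and 351 TPM under TVA. The groups did not overlap, and the TVA libraries lay much closer to each other than the DMSO libraries. The mean fell by 19.1%, from 441 ± 40.8 to 357 ± 4.79 TPM (SD, n = 3), a log2 change of -0.30 (SE 0.065, adjusted p = 0.036 by limma). Omitting DMSO replicate 3 gave an adjusted p of 0.096, and omitting a TVA library gave 0.11 to 0.148.

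Nfkbib (chr7:28758251-28767512, minus strand) encodes IkBbeta, an inhibitor that is degraded more slowly than IkBalpha. It had 98.6, 74.6 and 85.0 TPM under DMSO and 66.8, 62.5 and 61.6 TPM under TVA. This was the largest fitted change among the 10 genes. The mean fell by 26.1%, from 86.1 ± 12.01 to 63.6 ± 2.78 TPM (SD, n = 3), a log2 change of -0.42 (SE 0.093, adjusted p = 0.037 by limma). Omitting DMSO replicate 3 gave an adjusted p of 0.093, and omitting a TVA library gave 0.098 to 0.153. After the GC correction the log2 change was -0.27, still past the threshold (adjusted p = 0.0097 by limma). Nfkbib shares 314 exonic bases with Ccer2 and 42 with Sirt2 on the opposite strand, which makes its value uncertain in the same way as that of Nfkb2.

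Nfkbid (chr7:30421732-30428746, plus strand) encodes IkBNS, an atypical IkB protein that works in the nucleus. It had 91.4, 77.3 and 74.3 TPM under DMSO and 64.4, 64.7 and 64.6 TPM under TVA. The TVA libraries were nearly identical, and the lowest DMSO library was clearly above them. The mean fell by 20.3%, from 81.0 ± 9.13 to 64.5 ± 0.161 TPM (SD, n = 3), a log2 change of -0.32 (SE 0.073, adjusted p = 0.042 by limma). Omitting DMSO replicate 3 gave an adjusted p of 0.053, and omitting a TVA library gave 0.122 to 0.157.

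Nfkbie and Tnfaip3 did not pass the threshold. Nfkbie (chr17:45555703-45563169, plus strand) encodes IkBepsilon, another cytoplasmic inhibitor, and was the least abundant of the 10 genes. It had 34.7, 31.9 and 29.4 TPM under DMSO and 30.3, 27.8 and 27.8 TPM under TVA, so the groups overlapped through DMSO replicate 3 and TVA replicate 1 (log2 change -0.15, SE 0.067, adjusted p = 0.17 by limma). The log2 change of Nfkbie was -0.09 without DMSO replicate 1 and -0.21 without DMSO replicate 3. Tnfaip3 (chr10:19000910-19015657, minus strand) encodes A20, a ubiquitin-editing enzyme that restrains signalling to IKK. It had 88.6, 87.8 and 86.5 TPM under DMSO and 81.3, 81.7 and 80.8 TPM under TVA. The groups were tight and did not overlap, and the difference was small (log2 change -0.11, SE 0.033, 95% interval -0.18 to -0.03, adjusted p = 0.080 by limma).

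The order of the genes by level was almost the same in both groups. With DMSO it ran Nfkbia, Nfkb1, Nfkb2, Rel, Tnfaip3, Nfkbib, Rela, Nfkbid, Relb and Nfkbie. Nfkbia and Nfkb1 overlapped in range, as did each neighbouring pair from Tnfaip3 to Nfkbid, while Nfkb2, Rel, Relb and Nfkbie stood apart from their neighbours. With TVA, Nfkbib moved behind Rela and Nfkbid, and only the pairs Tnfaip3 with Rela and Nfkbid with Nfkbib overlapped. DMSO replicate 1 was the highest of all 6 libraries for 9 of the 10 genes, and TVA replicate 2 was the highest for Rel. The lowest of the DMSO libraries was replicate 2 for 5 genes, replicate 3 for 4 and replicate 1 for Rel. The SD was larger with DMSO than with TVA for 9 of the 10, and for 73.3% of all tested genes. The coefficient of variation ranged from 1.03% to 16% with DMSO and from 0.249% to 5.04% with TVA.

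The balance among the family members was described from the same TPM values, with no test. The summed TPM of the 5 subunits was 898, 788 and 796 with DMSO and 727, 734 and 728 with TVA. Rel made up 10.8%, 12.6% and 12.3% of this sum with DMSO and 13.5%, 14.2% and 13.9% with TVA. Its share was thus higher in each TVA library than in any DMSO library, while its own level overlapped between the groups. The ratio of Nfkb1 to Rel was 4.19, 3.69 and 3.73 with DMSO and 3.27, 3.16 and 3.23 with TVA. The 4 IkB genes (Nfkbia, Nfkbib, Nfkbie and Nfkbid) summed to 699, 579 and 643 TPM under DMSO and to 522, 514 and 505 TPM under TVA. Relative to the summed subunits they stood at 0.778, 0.735 and 0.807 with DMSO and at 0.718, 0.700 and 0.694 with TVA. The summed IkB transcripts were thus lower with TVA also against the summed subunit transcripts. This ratio is of transcripts, not proteins, and counts Nfkb2 only as a subunit, although p100 is also an inhibitor. The ratio of Nfkbia to Rela, its best known binding partner, was 4.91, 4.78 and 5.85 with DMSO and 4.43, 4.604 and 4.33 with TVA, without overlap. The ratio of Nfkb2 to Relb overlapped between the groups, at 4.16, 4.74 and 4.23 with DMSO and 4.82, 4.89 and 4.72 with TVA.

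**Figure D2:**
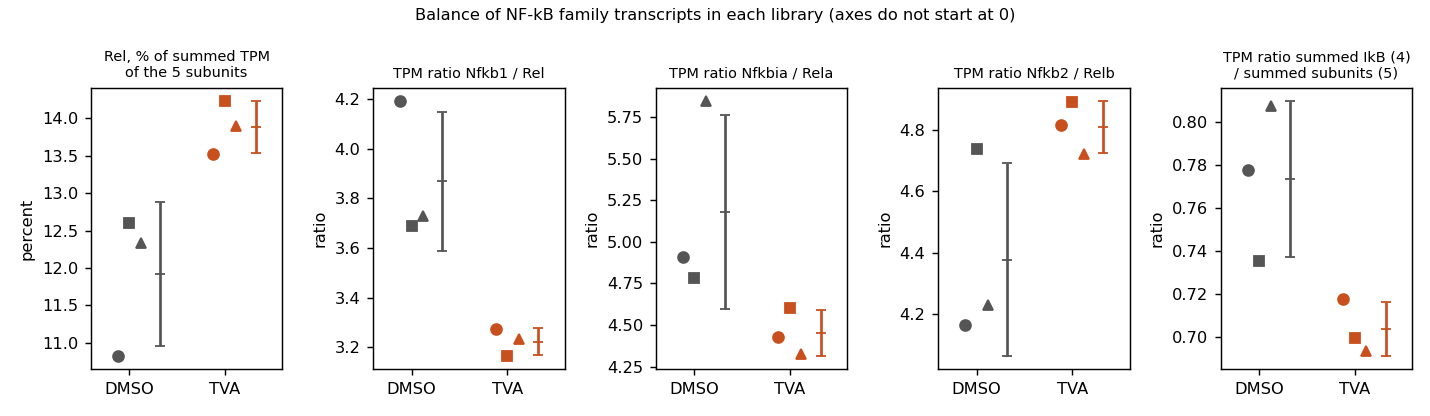
Share of Rel in the summed TPM of the 5 subunits (percent) and 4 TPM ratios in each library, DMSO in grey and TVA in orange, with the mean and SD of each group beside the points; the axes do not start at 0. The share of Rel is higher in all TVA libraries (13.5% to 14.2%) than in the DMSO libraries (10.8% to 12.6%), and only the ratio of Nfkb2 to Relb overlaps between the groups.

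GC content moved with the result. Of the 10 genes, 8 lie above the median transcript GC content of the tested genes (50.4%), from 52.5% for Nfkb1 to 60.8% for Relb, while Tnfaip3 (48.5%) and Rel (42.5%) lie below it. Across the 10 genes GC content and log2 change had a Spearman correlation of -0.636, and of -0.5 without Rel. The points share the 6 libraries, in which DMSO replicate 1 was the higher for GC-rich genes against DMSO replicate 2 (Spearman correlation 0.499) and replicate 3 (0.618). The part of GC content in the result was examined by removing a curve of expression on GC content within each library. After this correction 6 of the 10 genes were called, all lower, where 4.89% of all tested genes were called lower, and the Spearman correlation across the 10 genes was -0.188. Nfkb1, Nfkbia, Nfkbib and Nfkbid were still called, with log2 changes of -0.22, -0.27, -0.27 and -0.25. Tnfaip3 (log2 change -0.15, adjusted p = 0.017 by limma) and Relb (log2 change -0.18, adjusted p = 0.034 by limma) were called in addition.

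**Figure D3:**
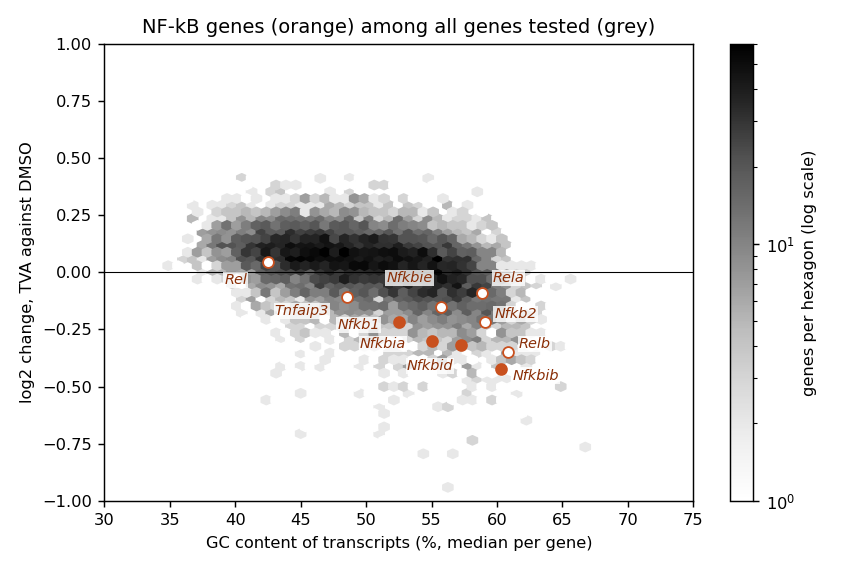
Log2 change between TVA and DMSO against the median GC content of a gene's transcripts (percent), with tested genes as grey hexagons (darker for more genes; changes beyond 1 in size are not drawn) and the NF-kB genes as orange points, filled where the adjusted p is under 0.05. The cloud slopes down towards GC-rich genes, and the filled points, between 52.5% and 60.3% GC, lie in its lower part.

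The corrected levels of Tnfaip3 were 89.2, 89.0 and 88.6 with DMSO and 81.0, 79.9 and 79.4 with TVA. Those of Relb were 47.7, 43.6 and 47.0 with DMSO and 40.7, 39.9 and 41.0 with TVA, so that the size of the difference was smaller than in the deposited values and the spread of the DMSO group was much smaller. Rela, at 84.1, 85.1 and 77.4 with DMSO and 83.9, 80.9 and 85.0 with TVA, had a log2 change of 0.02 after the correction (adjusted p = 0.79 by limma).

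**Figure D4:**
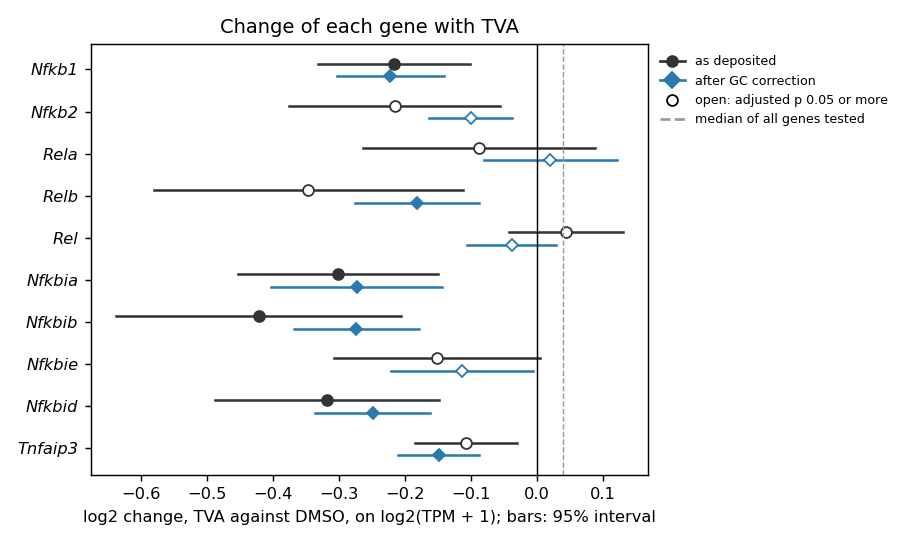
Log2 change of each gene between TVA and DMSO with its 95% interval, from the deposited TPM (black circles) and after GC correction (blue diamonds), open where the adjusted p is 0.05 or more; the dashed line is the median of all genes tested (0.04). Nfkb1, Nfkbia, Nfkbib and Nfkbid are filled in both, Relb and Tnfaip3 only after the correction, and the intervals are narrower after it.

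Of 58 other genes of the pathway, all tested, 2 rose and 3 fell, close to the 8.51% of all tested genes that passed in either direction (5.28% as higher), with a median log2 change of 0.01. Of 20 genes that act between the antigen receptor and IKK, none passed the threshold (3 at an unadjusted p under 0.05, limma, beside the 31.8% of all tested genes), and the median was 0.00. The adaptor gene Bcl10 had a log2 change of -0.05 (adjusted p = 0.43 by limma). The paracaspase gene Malt1, with 71.4, 70.1 and 73.3 TPM under DMSO and 64.4, 67.8 and 64.9 TPM under TVA, had a log2 change of -0.12 (adjusted p = 0.084 by limma) and passed only once corrected for GC content (log2 change -0.21, adjusted p = 0.014 by limma). The IKK subunit genes Chuk, Ikbkb and Ikbkg had log2 changes of 0.11, 0.00 and 0.09 (adjusted p = 0.12, 0.96 and 0.25 by limma). These were 0.04, -0.01 and 0.07 after the GC correction and 0.07, -0.03 and 0.05 under median-of-ratios scaling. The direction of Ikbkb turned under other settings. Of 9 genes for IkB degradation and p100 processing, none passed (1 at an unadjusted p under 0.05, limma), including Map3k14, the gene of NIK (log2 change -0.06, adjusted p = 0.55 by limma, with a positive change without DMSO replicate 1).

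Among 10 receptors of the TNF family, a pair of costimulatory receptors went in opposite directions. Tnfrsf4, the gene of OX40, fell from 266, 280.0 and 255 TPM under DMSO to 199.6, 198 and 201 TPM under TVA (log2 change -0.42, SE 0.042, adjusted p = 0.0032 by limma). Tnfrsf9, the gene of 4-1BB, rose from 338, 321 and 308 TPM to 401, 411 and 408 TPM (log2 change 0.33, SE 0.043, adjusted p = 0.0078 by limma). Neither overlapped between the groups. Tnfrsf9 did not pass without TVA replicate 2 (adjusted p = 0.063 by limma) or TVA replicate 3 (0.055).

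Of the other IkB family genes, Bcl3, which encodes a nuclear IkB protein that can act as a coactivator, fell from 13.1, 8.94 and 10.5 TPM to 7.67, 7.27 and 6.99 TPM (log2 change -0.50, SE 0.12, adjusted p = 0.044 by limma), which did not pass without DMSO replicate 3 (0.102) or a TVA library (0.113 to 0.159), with every gene above 0 TPM tested (0.090) or with no variance trend (0.051). Nfkbiz, the gene of the nuclear protein IkBzeta, had 21.3, 20.0 and 21.1 TPM and 19.7, 20.0 and 20.0 TPM, with a log2 change of -0.06 (adjusted p = 0.35 by limma). Nfkbil1, named after its values were seen as the only remaining gene of that list, had 27.6, 15.97 and 22.2 TPM and 16.1, 13.6 and 15.4 TPM, with overlap (log2 change -0.49, adjusted p = 0.10 by limma).

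Among 16 further negative regulators, 1 rose and 1 fell. Zc3h12a, the gene of the RNase Regnase-1, fell from 32.4, 28.4 and 28.0 TPM to 24.9, 24.0 and 24.5 TPM (log2 change -0.26, SE 0.060, adjusted p = 0.041 by limma). It did not pass with DMSO replicate 3 omitted (0.062), a TVA library omitted (0.111 to 0.165) or every gene above 0 TPM tested (0.074). The call was also lost with no variance trend (0.05) and with a replicate block (0.061). Tnip3, which encodes an A20-binding protein, rose at a low level, from 3.29, 2.55 and 2.67 TPM to 4.04, 3.92 and 3.69 TPM (log2 change 0.35, SE 0.085, adjusted p = 0.047 by limma). It did not pass when DMSO replicate 2 (0.053), DMSO replicate 3 (0.116) or a TVA library (0.135 to 0.171) was omitted, when every gene above 0 TPM was tested (0.088), under median-of-ratios scaling (0.053), or once corrected for GC content (log2 change 0.26, adjusted p = 0.12 by limma). Cyld, the gene of a deubiquitinase that acts beside A20, had a log2 change of 0.08 (adjusted p = 0.27 by limma), and -0.01 after the GC correction.

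**Figure D5:**
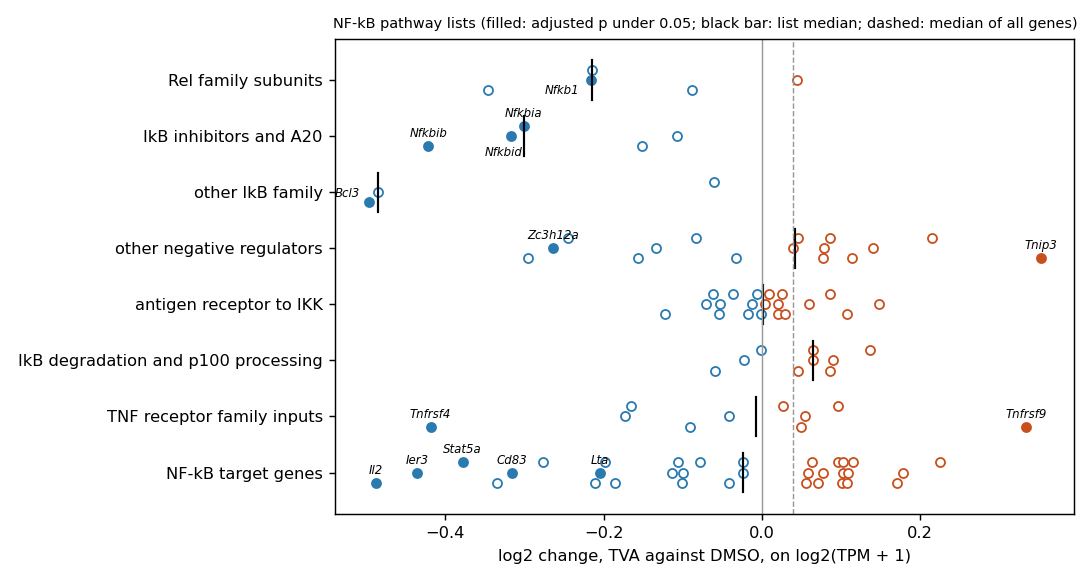
Log2 change between TVA and DMSO of every tested gene of the NF-kB lists, 1 row per list, blue for negative and orange for positive changes, filled and named where the adjusted p is under 0.05, with a black bar at the list median and a dashed line at the median of all genes. The subunit and inhibitor rows and the other IkB family row lie mostly to the left of 0, and the medians of the other rows lie between -0.02 and 0.06.

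NF-kB target genes were listed by hand from general knowledge (35 genes, without the 10 genes above), and 33 passed the filter. Of these, 5 fell and 0 rose, beside 3.23% and 5.28% of all tested genes, with a median log2 change of -0.02. Each TVA library lay above each DMSO library for 5 of the 33 and below for 10, beside 27.3% and 11.2% of all tested genes. Il2, the gene of the T cell growth factor IL-2, had the smallest p of the list, at 499.6, 517 and 499.6 TPM under DMSO and 357, 361 and 362 TPM under TVA (log2 change -0.49, adjusted p = 7.2e-04 by limma). Cd83, an activation marker, fell from 133, 129.6 and 134 TPM to 106, 107 and 105 TPM (log2 change -0.32, adjusted p = 0.0042 by limma). Both calls held under each setting tried.

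The other 3 were Ier3, Stat5a and Lta. Ier3, an immediate early gene linked to cell survival, fell from 56.6, 47.6 and 51.5 TPM to 38.9, 36.6 and 38.5 TPM (log2 change -0.44, adjusted p = 0.013 by limma). Stat5a, which encodes a transcription factor downstream of the IL-2 receptor, fell from 179, 159 and 153 TPM to 126, 126 and 125 TPM (log2 change -0.38, adjusted p = 0.016 by limma). Lta, the gene of lymphotoxin alpha, fell from 222, 228 and 211 TPM to 194, 191 and 188 TPM (log2 change -0.21, adjusted p = 0.028 by limma). Groups did not overlap for any of the 5 genes. Without a TVA library the adjusted p was 0.063 to 0.078 for Ier3, 0.073 to 0.086 for Stat5a and 0.093 to 0.143 for Lta, and after the GC correction it was 0.052 for Lta. Without DMSO replicate 2 the list had 12 calls, 3 higher and 9 lower. In that setting 2211 of all 10794 genes tested were called, and 9.21% were called lower. Without a TVA library the list had 2 calls, where 95 to 121 of all genes were called. Reads of Bcl2a1a, Bcl2a1b and Bcl2a1d, near-identical copies in this list, can be exchanged in quantification, so their values are uncertain.

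For each of the 4 called genes, the tested genes averaging 10 TPM or more whose log2(TPM + 1) followed it most closely over the 6 libraries are given by Pearson's r, as a description. Nfkb1 was followed most closely by Jade2 (r = 0.998), Ece1 (0.997) and Galnt6 (0.995), which fell by 0.23, 0.25 and 0.26 on the log2 scale and passed the threshold. Nfkbia was followed by Atf5 (0.998), Pak1ip1 (0.998) and Socs3 (0.995), Nfkbib by Mtmr14 (0.997), Rps7 (0.996) and Cited2 (0.995), and Nfkbid by Rpl6 (0.999), Cd9 (0.997) and Cd70 (0.996). Of these 9, Atf5 (log2 change -0.52), Socs3 (-0.33), Cited2 (-0.51) and Cd70 (-0.37) passed the threshold. All these genes were chosen for following a called gene in the same libraries. Their direction follows from that choice, so their calls are no separate evidence. The ribosomal protein genes Rps7 and Rpl6 had the pattern at a smaller size, with log2 changes of -0.15 and -0.11 (adjusted p = 0.070 and 0.13 by limma).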

How the data were processed

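RNA of wild-type mouse CD8+ T cells (3 DMSO and 3 TVA libraries) was sequenced after preparation with a SMARTER mRNA-Seq kit, per the labels. The authors deposited 1 table of TPM per gene symbol. The submitters' processing notes name STAR, RSEM and mm10, without versions, and the use of strand is not given in the sources used here. Of the symbols, 99.2% matched the RefSeq annotation of GRCm38.p6.

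TVA was compared with DMSO by limma 3.58.1 in R 4.3.3 on log2(TPM + 1), which understates fold changes of low genes, with a variance trend. A gene was tested if 3 or more libraries had 1 TPM or more. The p-values were two-sided and adjusted after Benjamini and Hochberg over the 10866 genes, with a threshold of 0.05. GC correction removed a loess curve (span 0.5) on GC content within each library (GENCODE vM21 transcripts, 97.4% of the genes tested). Gene coordinates are from GENCODE vM21 on the same build, and promoter windows from RefSeq. The fit was tested on simulated data. Alternatives were another pseudocount, other filters, median-of-ratios and quantile scaling, no variance trend, a replicate block, GC correction and leaving out each library.

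The members, lists, naming rule and alternatives were chosen with earlier results of these data known. Named were the 10 genes, fixed genes of the pathway (Bcl10, Malt1, Chuk, Ikbkb, Ikbkg, Map3k14, Cyld, Bcl3 and Nfkbiz), list genes past the threshold (of the targets at most 12), and the 3 genes most correlated with each called gene. Some items under this rule and of the marker lists are not reported here. Protein sequences were not analysed here. Figures were drawn with matplotlib 3.10.9.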

Additional observations from a re-analysis of the deposited data

How the results depend on the processing

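The fitted change was negative for 9 of the 10 NF-kB genes under each setting except without DMSO replicate 1 (8 genes). The count of the 10 called, 4 as reported and all lower in each setting, was 0 when every gene above 0 TPM was tested, 2 with no variance trend, 5 under median-of-ratios scaling as under quantile normalization, 6 after the GC correction, and 0 to 6 when a library was left out. Over the same settings with a change of over 1.5 times, the count over all genes (925) was 494 with all genes above 0 TPM and 608 with a mean of at least 10 TPM (fewer genes tested), and 95 to 2211 when a library was left out, the highest without DMSO replicate 2. Higher against lower calls over all genes were 574 against 351, turned to 270 against 492 after median-of-ratios scaling and 357 against 418 after quantile normalization, and were 597 against 531 after the GC correction. The count of the 58 other pathway genes (5) was 2 with all genes above 0 TPM, 3 with a mean of at least 10 TPM, and 1 to 7 when a library was left out. That of the 33 targets (5) was 2 to 12 when a library was left out. The sources do not say whether libraries of the same replicate number form pairs. Correlations of same-numbered deviations were 0.157, 0.0348 and -0.0767, which cannot decide it. With a replicate block 218 of all genes, 1 of the 10 (Nfkbib), 2 pathway genes and 4 targets were called. Changes with no call that turned direction after the GC correction were Rela (0.020), Rel (-0.039), Ikbkb (-0.0070) and Cyld (-0.0057). Ikbkb also turned after median-of-ratios scaling (-0.032) and quantile normalization (-0.021). When a library was left out, Rela ranged from -0.16 to 3.3e-05, Ikbkb from -0.030 to 0.053 and Map3k14 from -0.11 to 0.0087. Where the number of genes or libraries was not what changed, the cause was not tested. Of 140 values of the 10 genes under the alternatives, 106 kept direction and side of the threshold, 25 lost a call, 6 gained one and 3 turned.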
